A study of Homo sapiens with 4 samples.

Results

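Aminoacyl-tRNA synthetases are the enzymes that load each tRNA with its amino acid, so that the ribosome can read the genetic code. Human cells keep separate nuclear genes for the cytosolic enzymes and for the enzymes imported into mitochondria, and the lysyl- and glycyl-tRNA synthetase genes supply both places. When amino acids run short or the endoplasmic reticulum is stressed, phosphorylation of the initiation factor eIF2 favours translation of ATF4, a transcription factor that is known to act on many cytosolic synthetase genes. The members described here are 35 genes of this family among the 20515 genes of the count table, picked by symbol, with 19 cytosolic and 16 mitochondrial ones. Not every synthetase gene is among them. The names alone set the rule, but the family was proposed with results of this treatment contrast in view, so its differences between groups are given as a description, without p-values. A member is said to have risen or fallen where edgeR's quasi-likelihood test over all genes gave a Benjamini-Hochberg adjusted p under 0.05.

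The cells were T47D, a human breast cancer line of luminal type. Poly(A) RNA was sequenced from 2 samples treated with baicalein, a flavonoid known as a lipoxygenase inhibitor, and from 2 samples without treatment. The sources used here give neither dose, duration nor vehicle. The comparison asked which genes differ after baicalein. The labels do not say whether replicates are separate cultures, so errors and p-values cover the spread among 4 libraries, possibly a technical one. Total counts were 56732569 and 38597207 in baicalein 1 and 2, and 45341857 and 45618604 in control 1 and 2. Levels are in CPM, the count of a gene relative to its library total scaled with a TMM factor, and a floor of 3 counts corresponded to 0.0549 to 0.0805 CPM. All 35 members passed the filter on low counts, with 191 (PARS2) to 65697 counts per library. The larger library of a group had 1.01 times the smaller one's level of a member in the median for baicalein and 1.06 times for control, and at most 1.09 times for baicalein and 1.2 times for control. Of 8 luminal epithelial markers, summed at 6238 and 6333 CPM in baicalein and 12334 and 13612 CPM in control, 7 were lower after baicalein. Of 8 markers of other cell types 4 had a row, the leukocyte gene PTPRC was at 0 in both controls and at most 0.161 CPM in baicalein, and the fibroblast gene COL1A2 was at most 0.0183 CPM in baicalein and 0.106 CPM in control. COL1A1 rose to 149.9 and 139.9 CPM in baicalein, against 90.0 and 100.4 CPM in control, and the smooth muscle gene ACTA2 fell to 21.7 and 22.2 CPM in baicalein, against 30.8 and 31.0 CPM in control. Whether the lower luminal levels have a part in the results below was not tested. In RNA from whole cultures, fewer cells of a kind and less RNA per cell cannot be told apart.

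In sum, RNA of the cytosolic enzymes stood far above control after baicalein and that of the mitochondrial ones did not. Summed over the 19 cytosolic genes, RNA was at 7580 and 7590 CPM in baicalein, against 3159 and 3249 CPM in control, a ratio of 2.37. Summed over the 16 mitochondrial genes it was at 719.5 and 723 CPM in baicalein, against 885 and 885 CPM in control, a ratio of 0.815. The cytosolic sum was thus 10.5 and 10.5 times the mitochondrial sum in the baicalein libraries and 3.57 and 3.67 times in the controls. Of the cytosolic members 15 rose, 2 fell and 2 did not pass, while 37.4% of all 18369 tested genes were called higher and 37.6% lower. Of the mitochondrial members 5 rose, 7 fell and 4 did not pass. Over both compartments 29 of 35 members were called, against 75.0% of all tested genes. The median log2 fold change was 1.15 for the cytosolic, -0.066 for the mitochondrial and 0.0017 for all tested genes. A rise of at least 2-fold was found in 11 cytosolic and 0 mitochondrial members, against 12.2% of all tested genes. Those 11, picked by their rise, had summed levels at a ratio of 3.09, and the other 8 cytosolic members at 1.09. Tested against a change of 1.5-fold in place of none, 11 cytosolic members were higher (16.8% of all tested genes) and 1 mitochondrial member, TARS2, was lower (19.5%). Both baicalein libraries were above both controls in 15 cytosolic and 6 mitochondrial members (43.4% of all tested genes) and below both in 2 cytosolic and 8 mitochondrial members (43.5%). Without regard to direction, 86.9% of all tested genes had groups that did not overlap. These shares describe members chosen with the contrast known and support nothing further.

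**Figure D1:**
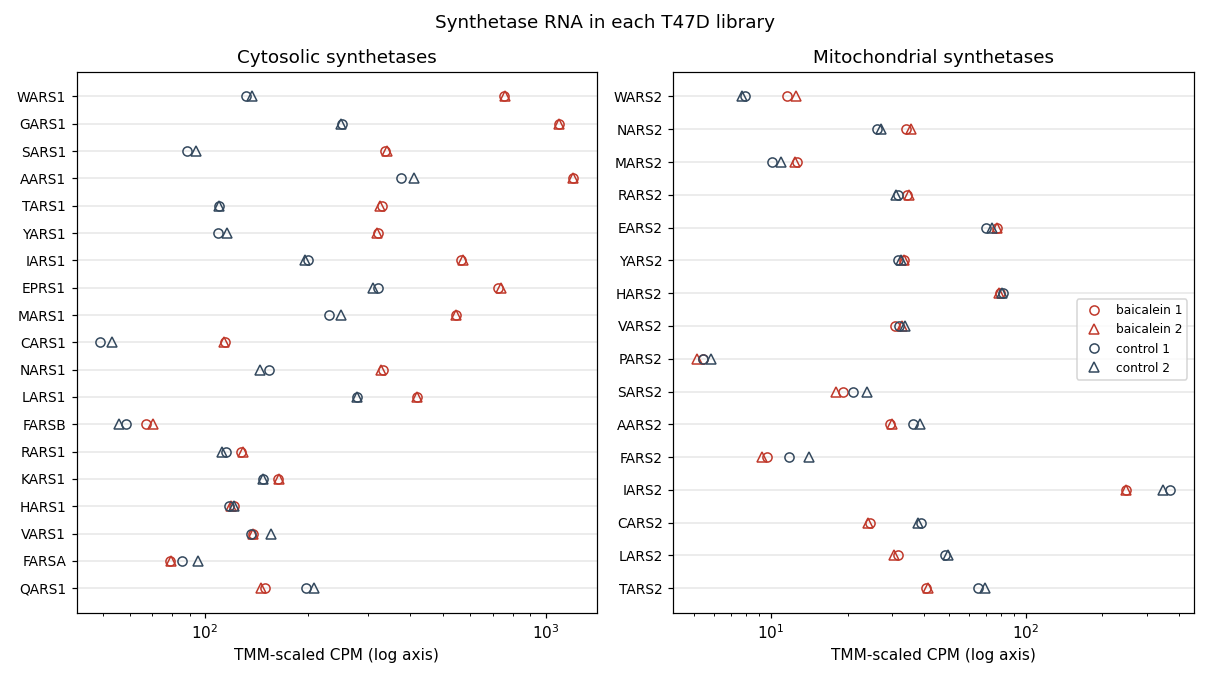
TMM-scaled CPM (log axis) of the 19 cytosolic (left) and 16 mitochondrial (right) synthetase genes in each library, in order of log2 fold change. Baicalein libraries are red and control libraries dark blue, and in the upper 11 cytosolic rows the red symbols lie far right of the blue ones.

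The tryptophanyl-tRNA synthetase gene WARS1 (ENSG00000140105, chromosome 14, positions 100333788 to 100376805 of GRCh38) had the largest difference of the family. It was at 754 and 758 CPM in baicalein, against 132 and 137 CPM in control, a log2 fold change of 2.49 (SE 0.044). GARS1, which charges glycine tRNA in the cytosol and in mitochondria (ENSG00000106105, chromosome 7, positions 30594681 to 30634033), was at 1093 and 1091 CPM in baicalein, against 252 and 251 CPM in control. Its log2 fold change was 2.12 (SE 0.041), or 4.34-fold. The seryl-tRNA synthetase gene SARS1, whose enzyme also serves selenocysteine tRNA (chromosome 1, positions 109213918 to 109238169), had 338 and 341 CPM in baicalein and 88.6 and 93.8 CPM in control (log2 fold change 1.90, SE 0.046). For each of these 3 genes the lower baicalein library was above the higher control library by a wide margin.

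AARS1, the alanyl enzyme gene (ENSG00000090861, chromosome 16, positions 70252295 to 70289543), was the most abundant cytosolic member per transcript length in all 4 libraries. It had 1201 and 1201 CPM in baicalein, against 375 and 410.0 CPM in control (log2 fold change 1.61, SE 0.045). AARS1 and GARS1 together held 30.3% and 30.2% of the cytosolic sum in the baicalein libraries, against 19.8% and 20.3% in the controls. The threonyl enzyme gene TARS1 (chromosome 5, positions 33440696 to 33469539) had 329 and 326 CPM in baicalein and 109.5 and 109.996 CPM in control (log2 fold change 1.58, SE 0.044). YARS1, the tyrosyl enzyme gene, had 322 and 318 CPM in baicalein and 109 and 116 CPM in control (1.51, SE 0.046). Of the remaining members with at least 2-fold rises, the isoleucyl enzyme gene IARS1 had 562 and 569 CPM in baicalein, against 201 and 196 CPM in control, a log2 fold change of 1.51 (SE 0.042). The gene EPRS1 codes for a fused enzyme that charges glutamate and proline tRNA, and it had 725 and 736 CPM in baicalein and 321 and 311 CPM in control (log2 fold change 1.21, SE 0.042).

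The methionyl enzyme gene MARS1 had 546 and 546 CPM in baicalein, against 231 and 249.6 CPM in control (log2 fold change 1.18, SE 0.045). On the opposite strand, 355 of its 7028 exon bases are shared with DDIT3, the gene of the stress factor CHOP. DDIT3 has 1307 exon bases, so the shared stretch is a larger part of DDIT3 than of MARS1. DDIT3, named after its values were seen, had 372 and 434 CPM in baicalein, against 12.1 and 12.7 CPM in control. The sources used here do not say whether strand was used in counting. The part of DDIT3 reads in the MARS1 value was not tested, nor whether MARS1 would stay past 2-fold without them. The cysteinyl enzyme gene CARS1 had 114 and 114 CPM in baicalein and 49.3 and 53.3 CPM in control (log2 fold change 1.15, SE 0.048). NARS1, which charges asparagine tRNA, had 332 and 328 CPM in baicalein and 153 and 145 CPM in control (1.14, SE 0.045). These were the smallest differences among the 11 members past 2-fold, and the next member below them was the leucyl enzyme gene LARS1 with 418 and 418 CPM in baicalein, against 279 and 279.6 CPM in control (0.58, SE 0.041).

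The other 7 cytosolic members differed less from control than LARS1 did, and among them QARS1 differed most. QARS1, the glutaminyl enzyme gene (ENSG00000172053, chromosome 3, positions 49095932 to 49105135), fell to 149.6 and 146 CPM in baicalein, against 197 and 209 CPM in control, a log2 fold change of -0.46 (SE 0.045). The cytosolic phenylalanyl enzyme is built from an alpha subunit, encoded by FARSA, and a beta subunit, encoded by FARSB. FARSA fell to 79.0 and 79.2 CPM in baicalein, against 85.5 and 95.3 CPM in control (-0.19, SE 0.05), and FARSB rose to 67.1 and 70.1 CPM in baicalein, against 58.7 and 55.8 CPM in control (0.26, SE 0.049). The subunit genes thus moved by small amounts in opposite directions. The lysyl enzyme gene KARS1 had 163 and 164 CPM in baicalein and 147 and 147 CPM in control (0.15, SE 0.043), and the arginyl enzyme gene RARS1 127 and 129 CPM in baicalein and 115 and 112 CPM in control (0.17, SE 0.042). With library totals in place of TMM factors neither KARS1 (log2 fold change 0.048) nor RARS1 (0.065) passed. KARS1 also missed the threshold without either baicalein library.

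The histidyl and valyl enzyme genes did not pass. HARS1 had 122 and 119 CPM in baicalein and 118 and 121 CPM in control, and its log2 fold change of 0.0073 (SE 0.042) changed sign with other scalings and without single libraries. With library totals HARS1 was at -0.096 and passed as lower. VARS1 had 138 and 138 CPM in baicalein, against 137 and 156 CPM in control (-0.082, SE 0.052). The baicalein values of VARS1 lie between its control values. Without control 2 its log2 fold change was 0.024, and without control 1 it was -0.17 and passed, as it did with upper quartile factors (-0.11) and library totals (-0.19).

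**Figure D2:**
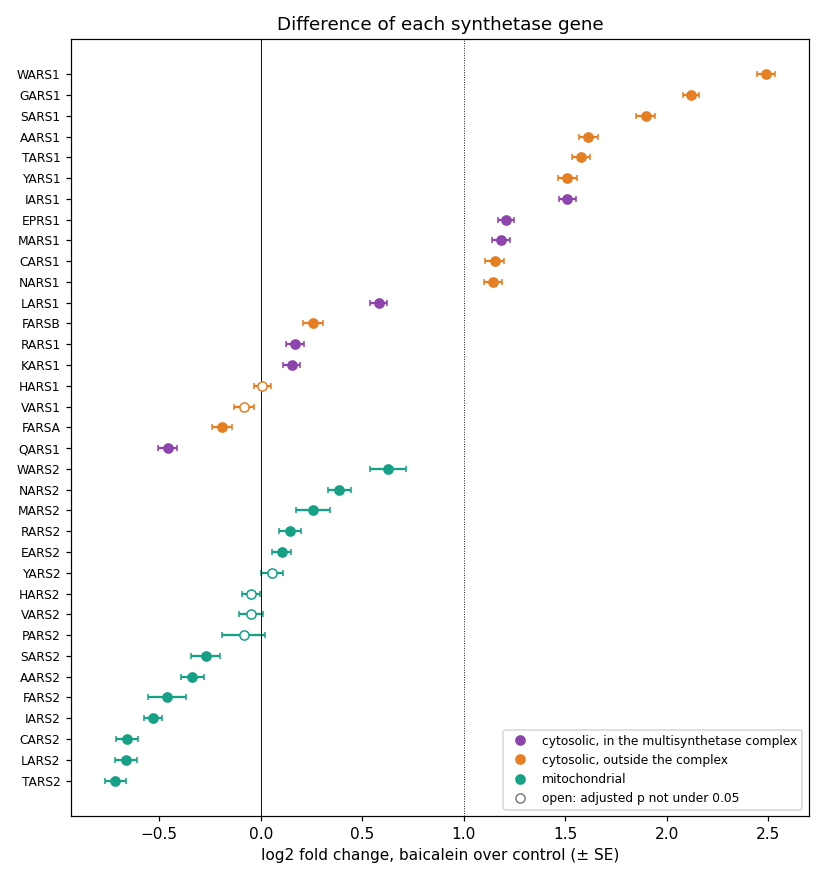
Log2 fold change of each member, baicalein over control, with its SE (n = 2 libraries per group). The upper 19 rows are cytosolic (purple for enzymes of the multisynthetase complex, orange for the others), the lower 16 mitochondrial (green), open symbols did not pass, and the dotted line marks 2-fold: 11 cytosolic members lie right of it, and LARS1 at 0.58 is the nearest on its left.

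Several cytosolic enzymes sit in one large assembly, the multisynthetase complex, held together by scaffold proteins. Its 7 enzyme genes among the members did not move as a block. EPRS1, IARS1 and MARS1 rose past 2-fold, LARS1 rose with a log2 fold change of 0.58, KARS1 and RARS1 rose by at most 1.12-fold, and QARS1 fell 1.37-fold. Their median log2 fold change was 0.58, against 1.33 for the 12 cytosolic members outside the complex, of which 8 rose past 2-fold. Of the 3 scaffold genes, AIMP2 rose to 78.3 and 80.6 CPM in baicalein, against 30.1 and 30.1 CPM in control (log2 fold change 1.40, SE 0.05), and EEF1E1 to 40.4 and 39.8 CPM in baicalein, against 30.1 and 26.4 CPM in control (0.50, SE 0.061). AIMP1 did not pass, with 81.3 and 82.6 CPM in baicalein and 79.6 and 76.1 CPM in control. By structural class of the catalytic domain, of 9 cytosolic class I genes 7 rose and 1 fell (median 1.15), and of 9 cytosolic class II genes 7 rose and 1 fell (median 1.14). EPRS1, which holds a domain of each class, was left out of both. Of 9 mitochondrial class I genes 4 rose and 3 fell (median 0.055), and of 7 mitochondrial class II genes 1 rose and 4 fell (median -0.27). Over all tested genes 37.4% were called higher, 37.6% lower and 12.2% higher by at least 2-fold. Differences between the classes were not tested.

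Of the mitochondrial members, 7 fell. TARS2, the mitochondrial threonyl enzyme gene, had 40.5 and 41.3 CPM in baicalein, against 64.9 and 69.5 CPM in control, a log2 fold change of -0.72 (SE 0.052). The leucyl enzyme gene LARS2 had 31.5 and 30.3 CPM in baicalein and 48.3 and 49.7 CPM in control (-0.66, SE 0.053). CARS2, for cysteine, had 24.4 and 23.9 CPM in baicalein and 38.7 and 37.8 CPM in control (-0.66, SE 0.056). In each of them both baicalein libraries lay well below both controls.

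IARS2, the mitochondrial isoleucyl enzyme gene (ENSG00000067704, chromosome 1, positions 220094102 to 220148041), was the most abundant of its compartment per transcript length. It had 247 and 248 CPM in baicalein, against 368 and 348 CPM in control (log2 fold change -0.53, SE 0.044), and it held 34.4% and 34.3% of the mitochondrial sum in baicalein, against 41.6% and 39.3% in control. FARS2, the phenylalanyl enzyme gene, had 9.64 and 9.18 CPM in baicalein and 11.8 and 14.2 CPM in control (-0.46, SE 0.093). AARS2, the alanyl enzyme gene, had 29.4 and 29.7 CPM in baicalein and 36.2 and 38.6 CPM in control (-0.34, SE 0.056). The smallest of the falls was in the seryl enzyme gene SARS2, with 19.2 and 18.04 CPM in baicalein and 21.1 and 23.9 CPM in control (-0.27, SE 0.072). Of the exon bases of SARS2 46.2% are shared with AC011455.2, an annotated gene on the same strand, so its reads cannot be placed with certainty.

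The 5 mitochondrial members that rose did so by at most 1.55-fold. WARS2, the mitochondrial tryptophanyl enzyme gene, had 11.6 and 12.6 CPM in baicalein, against 7.87 and 7.70 CPM in control (log2 fold change 0.63, SE 0.088). NARS2, for asparagine, had 33.8 and 35.5 CPM in baicalein and 26.0 and 26.9 CPM in control (0.39, SE 0.057). MARS2, for methionine, had 12.6 and 12.4 CPM in baicalein and 10.1 and 10.9 CPM in control (0.26, SE 0.083). RARS2, for arginine, had 34.1 and 35.0 CPM in baicalein and 31.5 and 31.0 CPM in control (0.14, SE 0.055), and the glutamyl enzyme gene EARS2 76.9 and 77.5 CPM in baicalein and 69.9 and 73.8 CPM in control (0.10, SE 0.047). For tryptophan, asparagine, methionine, arginine and, with EPRS1 and EARS2, glutamate the genes of both compartments thus rose. In DESeq2 none of MARS2, RARS2 and EARS2 passed, and without baicalein 1 none of them did either.

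YARS2, VARS2, HARS2 and PARS2, for tyrosine, valine, histidine and proline, did not pass. YARS2 had 33.4 and 33.2 CPM in baicalein and 31.6 and 32.5 CPM in control, and VARS2 30.6 and 32.6 CPM in baicalein and 31.7 and 33.6 CPM in control. Of the exon bases of VARS2 22% are shared with GTF2H4, a gene on the same strand, so VARS2 reads cannot be placed with certainty. HARS2 had 79.3 and 78.3 CPM in baicalein and 81.6 and 81.1 CPM in control, and PARS2 5.41 and 5.13 CPM in baicalein and 5.40 and 5.81 CPM in control. Their log2 fold changes ran from -0.084 (PARS2, SE 0.11) to 0.055 (YARS2, SE 0.055), and the value of YARS2 turned to -0.049 with library totals. HARS2 (-0.15) and VARS2 (-0.15) passed as lower with library totals. HARS1 and HARS2 lie head to head on chromosome 5, with 84 bases between their RefSeq start sites at positions 140691370 and 140691455, and neither passed. Their GENCODE exons share 437 bases on opposite strands.

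Setting cytosolic genes against the mitochondrial gene for the same amino acid gave 15 pairs, with FARSA and FARSB each set against FARS2. EPRS1 was not set against EARS2 or PARS2, and GARS1, KARS1 and QARS1 have no mitochondrial partner among the members. In 14 of them the log2 ratio of CPM was above both controls in both baicalein libraries. The exception was VARS1 over VARS2, where VARS2 shares exon bases with GTF2H4 on the same strand. No such share was taken over other pairs of genes. Taken singly, 86.9% of all tested genes had groups that did not overlap, and the 14 include pairs that hardly shifted. The ratios hold the same differences as the fold changes, side by side, and were not tested. The widest shift was in threonine, where the log2 ratio of TARS1 to TARS2 was 3.02 and 2.98 in baicalein, against 0.75 and 0.66 in control. For isoleucine the order of the genes turned round: the log2 ratio of IARS1 to IARS2 was 1.19 and 1.199 in baicalein, against -0.87 and -0.83 in control. For serine the log2 ratio was 4.14 and 4.24 in baicalein, against 2.07 and 1.97 in control, as SARS1 rose and SARS2 fell. The arginine pair shifted by 0.025 and the histidine pair by 0.053, and the median shift over the 15 pairs was 1.25.

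**Figure D3:**
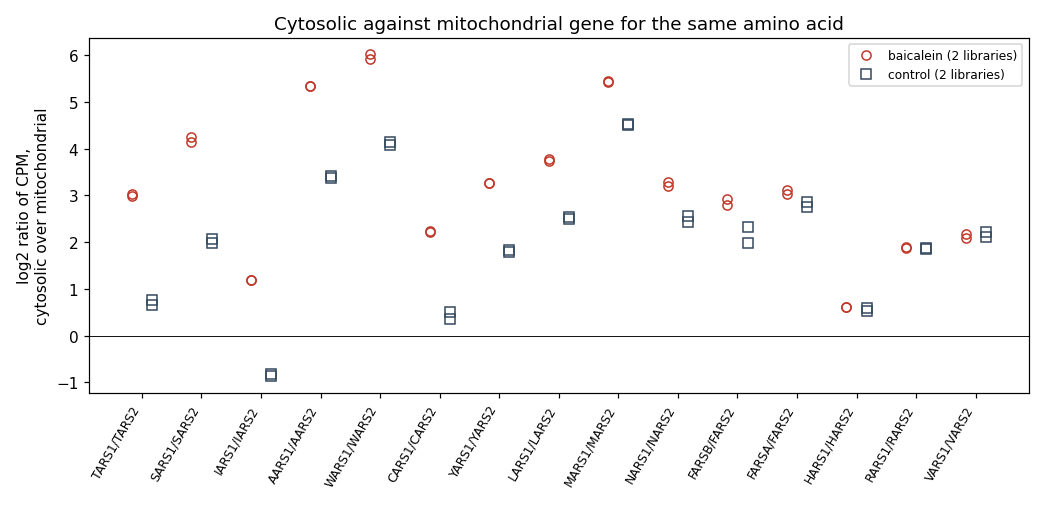
Log2 ratio of the CPM of each paired cytosolic gene to that of the mitochondrial gene for the same amino acid, in each library, ordered by the baicalein minus control difference. Baicalein libraries (red circles) are drawn left of control libraries (blue squares) and lie higher in each pair except VARS1 to VARS2, and the IARS1 to IARS2 ratio is below 0 in control and above 0 in baicalein.

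Compared per transcript length (CPM per kb of GENCODE exon), AARS1 had 267 CPM per kb in both baicalein libraries, against 83.3 and 91.1 in control. IARS2 had 59.4 and 59.5 CPM per kb in baicalein, against 88.4 and 83.5 in control, so AARS1 was first in both baicalein libraries and the control libraries differ on which of the pair was higher. Both were in control above GARS1 with a mean of 60.5 and EPRS1 with a mean of 58.0 CPM per kb. In baicalein IARS2 was ninth of the 35, and GARS1 came next to AARS1 with 263. WARS1 was at rank 4 in baicalein with 119 CPM per kb and at rank 16 in control with 21.2. QARS1 was at rank 16 in baicalein with 31.4 CPM per kb and at rank 5 in control with 43.1. The lowest levels per length were those of FARS2, PARS2 and CARS2 in baicalein (1.95 to 2.31 CPM per kb), and WARS2, PARS2 and FARS2 in control (2.02 to 2.68). Exon length was taken over every annotated transcript, so a gene with many long isoforms, such as CARS1, reads low on this scale.

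ATF4 and its partners of the C/EBP family bind a composite element, the C/EBP-ATF response element, in promoters of amino acid response genes. Its core was searched as TGATGNAA on both strands of the RefSeq windows (GRCh38.p14) from 250 bases before to 50 after each start, where a gene with several starts has several windows and counts as 1. Windows were given for 30 members, 16 of them cytosolic, and LARS1, VARS1, YARS1, AARS2 and VARS2 had none. A match was found in 7 of the 16 cytosolic and 1 of the 14 mitochondrial members, against 4.46% of all 27305 genes in the table and 2.78% of the 12177 tested genes with a window. All 7 cytosolic matches were in members that rose past 2-fold, where they made 7 of 10, and 0 of the 6 other cytosolic members held one. Of all 1371 tested genes that rose at least 2-fold, 6.13% held a match, and of the 10806 others 2.35%. Of the 20 ATF4 response genes outside the family that had a window, 5 did. These are counts of letters in a window, on members and groups known beforehand.

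The matches are printed because 6 of the 8 are the same 8 bases, read as TTGCATCA or, in NARS1, from the other strand as TGATGCAA. Each stretch is 30 bases of the sense strand, 5′ to 3′, with the match in capitals.
AARS1 (chr16:70289675-70289704, minus strand): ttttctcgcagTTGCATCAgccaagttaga
IARS1 (chr9:92293692-92293721, minus strand): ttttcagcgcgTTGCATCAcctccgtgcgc
MARS1 (chr12:57488053-57488082, plus strand): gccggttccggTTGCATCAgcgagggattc
CARS1 (chr11:3057407-3057436, minus strand): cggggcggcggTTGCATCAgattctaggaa
TARS1 (chr5:33440956-33440985, plus strand): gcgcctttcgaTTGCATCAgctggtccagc
NARS1 (chr18:57621804-57621833, minus strand): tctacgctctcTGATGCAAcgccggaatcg
GARS1 (chr7:30594834-30594863, plus strand): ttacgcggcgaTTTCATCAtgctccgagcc
YARS2 (chr12:32756076-32756105, minus strand): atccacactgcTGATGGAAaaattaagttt
The exact form TGATGCAA, on either strand, was in 6 of the 16 cytosolic members, 0 of the 14 mitochondrial ones and 0.739% of the tested genes with a window. In 4 of the genes (IARS1, MARS1, CARS1 and TARS1) the match began within 13 bases of the RefSeq start on either side. In AARS1 it began 187 bases before it, and in YARS2 197 bases before it.

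The upstream stretch of AARS1 is set beside those of SARS1, which rose 3.72-fold with no match, and RARS1, which rose 1.12-fold with no match. Each runs from 250 bases before the RefSeq start to the last base outside the GENCODE gene and the RefSeq transcript, with matches in capitals.
AARS1 (chr16:70289544-70289756, minus strand): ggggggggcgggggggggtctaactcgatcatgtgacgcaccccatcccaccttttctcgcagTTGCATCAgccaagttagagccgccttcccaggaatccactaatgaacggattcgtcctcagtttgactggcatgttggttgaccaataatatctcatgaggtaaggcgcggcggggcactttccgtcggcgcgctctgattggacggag
SARS1 (chr1:109213643-109213892, plus strand): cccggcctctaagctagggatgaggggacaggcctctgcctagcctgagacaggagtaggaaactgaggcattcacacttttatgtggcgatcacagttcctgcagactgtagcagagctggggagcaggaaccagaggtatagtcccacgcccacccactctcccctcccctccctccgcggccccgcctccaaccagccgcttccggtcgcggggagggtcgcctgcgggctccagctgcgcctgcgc
RARS1 (chr5:168486221-168486444, plus strand): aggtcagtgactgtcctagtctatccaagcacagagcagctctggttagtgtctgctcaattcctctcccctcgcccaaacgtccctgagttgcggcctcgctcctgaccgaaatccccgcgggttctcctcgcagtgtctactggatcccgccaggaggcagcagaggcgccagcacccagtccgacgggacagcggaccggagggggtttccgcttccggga
WARS1, with the largest rise, EPRS1 and SARS1 also held no match, which says only that these letters are not in their windows.

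**Figure D4:**
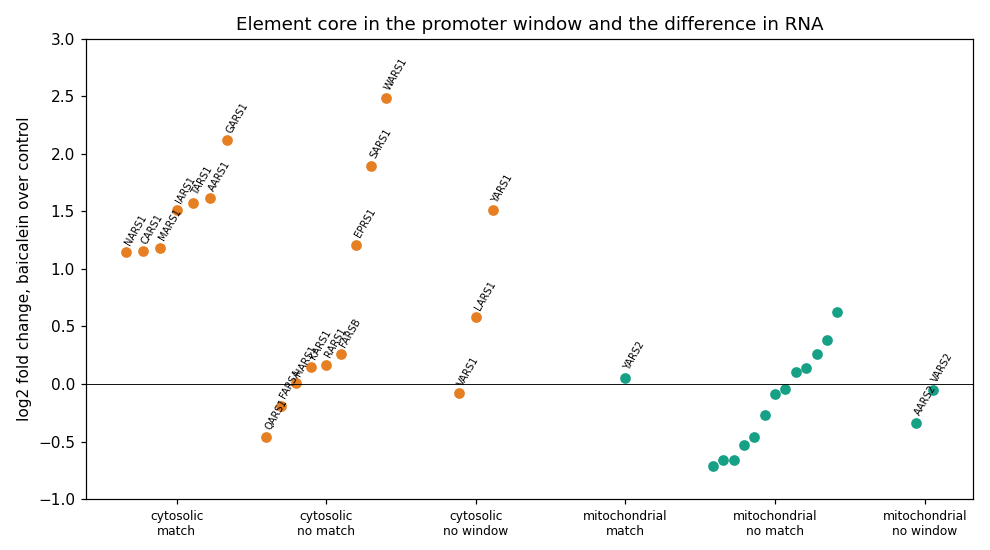
Log2 fold change, baicalein over control, of the members by compartment and by whether the searched core was in their RefSeq promoter window (no window means that none was given). The 7 cytosolic members with a match lie between 1.14 and 2.12, and those without one between -0.46 and 2.49.

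Most of the listed other genes of the amino acid response were also higher. That list was drawn up with earlier results known, and whether ATF4 has a part in any of these rises was not tested. Of 25 ATF4 response genes outside the family 23 rose, 1 fell and 1 did not pass, with a median log2 fold change of 1.90. Among all tested genes 37.4% were called higher and 37.6% lower. The amino acid transporter genes SLC7A5 and SLC7A11 had log2 fold changes of 3.51 and 4.29 and the stress factor gene ATF3 3.85. ATF4 itself, named after its values were seen, had 543 and 522 CPM in baicalein, against 224 and 234 CPM in control (1.22, SE 0.044). The fall was in STC2, a secreted glycoprotein gene, and ALDH18A1, of proline synthesis, did not pass, and both were also named after their values were seen.

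WARS1 is also known as a gene induced by interferon gamma. Of 10 interferon-induced genes 4 rose, 4 fell and 2 did not pass, with a median log2 fold change of -1.02. The split depended on the method, with 2 higher and 6 lower in DESeq2, 4 higher and 6 lower in limma-voom, and 3 higher and 2 lower at an adjusted p under 0.01. Without control 2 it was 2 higher and 6 lower, and without baicalein 1 it was 2 higher and 4 lower. The transcription factor gene IRF1 rose to 21.4 and 23.4 CPM in baicalein, against 2.24 and 2.79 CPM in control (3.15, SE 0.11). ISG15 had 1.06 and 1.15 CPM in baicalein and 2.54 and 2.02 CPM in control (-1.05, SE 0.2), and GBP1 had 0.238 and 0.268 CPM in baicalein and 0.656 and 0.851 CPM in control (-1.58, SE 0.35). The list summed to 147 and 155 CPM in baicalein and 169 and 136 CPM in control, so its groups overlapped.

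The genes that supply and export tRNA did not move in one direction. XPOT, the export receptor for tRNA, rose to 1213 and 1206 CPM in baicalein, against 412 and 388 CPM in control (log2 fold change 1.60, SE 0.042). The gene TRMT10C, of the mitochondrial tRNA processing complex, fell to 24.6 and 25.2 CPM in baicalein, against 46.4 and 43.4 CPM in control (-0.85, SE 0.057). PRORP, the nuclease of that complex, fell with -0.92 (SE 0.063), and in all 2 genes of tRNA processing and export rose and 4 fell. Among 19 genes of RNA polymerase III and its factors, which transcribe tRNA genes, 8 rose, 9 fell and 2 did not pass. POLR3D and POLR3C had log2 fold changes of 1.304 and 1.06, and POLR3K had -1.20. PTRH2, a peptidyl-tRNA hydrolase of mitochondria, and DTD1, which removes D-amino acids from tRNA, rose with log2 fold changes of 1.09 and 1.08.

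Selenocysteine incorporation, which starts from tRNA charged by SARS1, had 2 genes higher and 1 lower of 4, with SECISBP2 at 0.53, EEFSEC at -0.39 and SEPSECS at 0.32 on the log2 fold change scale. Of the 4 genes that finish mitochondrial aminoacyl-tRNA by amidation or formylation, QRSL1 rose (log2 fold change 0.22, SE 0.068), though not without baicalein 1, and MTFMT (-0.18), GATB (-0.10) and GATC (0.0095) did not pass. With library totals 0 of these 4 were higher and 2 lower, and without baicalein 1 0 were higher and 1 lower. Some translation elongation factors, such as that of EEF1A1, take up the charged tRNA. Of 7 genes listed as cytosolic elongation factors 5 rose and 1 fell, with a median log2 fold change of 0.27. The largest rise was in EEF2 with 0.60 (3696 and 3728 CPM in baicalein, 2351 and 2533 CPM in control), followed by EEF1B2 with 0.46, and EEF1A1 had 0.31. Of 9 mitochondrial translation factors 5 rose and 3 fell. TSFM and TUFM, the genes of the elongation factors Ts and Tu, fell with -0.72 and -0.60, and the initiation factor gene MTIF2 rose with 0.65. These companion lists, like the members, were drawn up with earlier results known, and their counts stand beside the 37.4% higher and 37.6% lower among all tested genes.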

How the data were processed

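For each of 4 poly(A) RNA libraries the deposited table gives unscaled counts, all whole numbers, 1 row a gene. Per the submitters' processing notes, with no roles stated, GRCh38 was the build and the tools were DESeq2 1.34, RSEM 1.3.3, cutadapt 2.3, STAR 2.7.8a and FastQC 0.11.8. Neither annotation release nor strand use is given in the sources, nor whether the counts are rounded RSEM estimates, which would split shared reads. The smallest row total is 10, so weaker genes are not analysed here, and 0 of its columns belong to other samples.

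Libraries were matched by the sample descriptions and groups by the titles. Symbols came from the reference names table and positions, exon lengths and overlaps from GENCODE 29 on GRCh38, which may not be the authors' release. The test was edgeR 4.0.16 under R 4.3.3 (robust quasi-likelihood F test, TMM factors, filterByExpr with a minimum count of 10 and total of 15) over 18369 genes and all 4 libraries, with Benjamini-Hochberg adjustment and a threshold of 0.05. Each SE is the log2 fold change, without sign, divided by the square root of F. The method was tried on simulated counts in which far fewer genes changed than the 75.0% called here. That trial cannot show how the method does on data with so many differences. The SE draws on an estimate of spread shared in part across genes, so it does not follow depth alone. Errors cover these libraries only, and floors of 3 counts cover counting only.

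Members and lists were chosen with earlier results of these data known. Every member was named, each companion list by up to 3 members with the smallest adjusted p, and some companion genes are not reported here. Alternatives were other scalings and filters, DESeq2 1.42.0, limma-voom (limma 3.58.1), an adjusted p under 0.01, a test against 1.5-fold, a replicate block and leaving out each library.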

Additional observations from a re-analysis of the deposited data

How the results depend on the processing

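The count of 15 cytosolic members called higher stayed within 1.5 times under every alternative run, and every one of the 11 members past 2-fold kept its direction and call. Under library totals alone the median of all tested genes moved to -0.10, and with it the cytosolic median to 1.05 and the mitochondrial median to -0.17, with 4 cytosolic members called lower, HARS1 among them, and 2 mitochondrial ones higher and 9 lower. Relative to that shift the medians of both compartments differed little from those reported. Upper quartile factors left 3 mitochondrial members higher, DESeq2 2 and an adjusted p under 0.01 3. A test against a 1.5-fold change, which asks for more by construction, called 3090 genes higher and 3581 lower, with 0 cytosolic members lower and 0 mitochondrial ones higher and 1 lower. With upper quartile factors HARS1 turned to -0.025, and with library totals HARS1 turned to -0.096 and YARS2 to -0.049. Leaving out 1 library gave cytosolic medians of 1.13 to 1.19, mitochondrial members called higher of 2 to 5, HARS1 between -0.012 (without control 1) and 0.038, and VARS1 between -0.17 (without control 1) and 0.024 (without control 2). The single library left in a group is then taken to vary as the other group does. The cause of the other shifts was not tested.

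Replicate numbers are not said to mark a shared culture, and deviations of same-numbered libraries correlated at 0.0136. With the replicate block the cytosolic median was 1.15 and the mitochondrial -0.065, and EARS2 (log2 fold change 0.11) was the only member to lose its call.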
